A study of Mus musculus with 8 samples.

Results

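The genes that move, store and sense zinc were examined in mouse wound skin treated with a zinc-containing nanomaterial. The set was defined by gene symbol and by no threshold on measured values, but it was chosen with earlier results of these data known. It holds all symbols of the deposited table that begin with Slc30a or Slc39a, together with Mt1, Mt2, Mt3, Mt4, Mtf1, Gpr39 and Trpm7. These are 30 of 18540 genes, namely 4 metallothioneins, 9 exporters of the Slc30a family, 14 importers of the Slc39a family and 3 genes that sense zinc or let it through a channel. Of the 30 genes, 26 passed the filter on low counts and were tested, and Mt3, Slc30a3, Slc30a10 and Slc39a5 did not.

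RNA was sequenced from mouse skin in 2 groups of 4 samples, titled con and shiyan. The study's own names for the same sample numbers are control and Z1C2Z, and these names are used here with the number added. Wherever the values of single samples are listed, they follow these numbers, which are 1, 2, 3 and 5 in the control group and 1, 2, 4 and 5 in the Z1C2Z group. According to the methods, wound skin was taken from mice treated with the ZCZ composite for 15 days. ZCZ holds ZnO2 and CeO2 particles in ZIF-8, a framework of zinc and an imidazole, and Z1C2Z is its form with more CeO2 for each ZnO2. The dose given for the wound experiments was 100 μg/kg, injected around the wound, and control wounds received PBS. Wounds were made in db/db mice of 10 weeks, which lack a working leptin receptor and become diabetic, and in C57BL mice of 6 weeks. Neither the labels nor the methods say which strain was sequenced, nor whether samples of a group came from separate mice, so the p-values measure the spread between these samples, which may in part be technical.

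Cells hold free zinc at a very low level, since most of it is bound to proteins. Slc39a (ZIP) proteins bring zinc into the cytosol from outside or from organelles, Slc30a (ZnT) proteins carry it out or into organelles, and metallothioneins bind zinc and copper through their many cysteines. The transcription factor Mtf1 senses cytosolic zinc and, when zinc rises, binds metal response elements in the promoters of Mt1, Mt2 and Slc30a1. Metallothionein genes are also induced by glucocorticoids and by inflammatory cytokines, and Slc39a14 is known as an IL6-induced importer of the acute phase in liver.

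The promoters of Mt1, Mt2, Mt4 and Slc30a1 are shown because Mt1, Mt2 and Slc30a1 are the textbook zinc-responsive genes and Mt4 had the largest fold change of the set. Each sequence is the 250 bases before the annotated start in RefSeq, build GRCm38.p6, and all 4 lie on the plus strand. The Mt1 window is chr8:94178839-94179088, the Mt2 window chr8:94172368-94172617, the Mt4 window chr8:94136954-94137203 and the Slc30a1 window chr1:191906531-191906780. Capitals mark each match to the core of the metal response element, written TGCACNC or TGCGCNC and searched on both strands.
Mt1: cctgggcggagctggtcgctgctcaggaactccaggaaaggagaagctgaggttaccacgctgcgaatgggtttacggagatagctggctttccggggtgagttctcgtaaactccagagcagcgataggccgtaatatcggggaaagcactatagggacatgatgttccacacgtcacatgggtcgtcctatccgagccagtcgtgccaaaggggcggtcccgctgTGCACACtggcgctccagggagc
Mt2: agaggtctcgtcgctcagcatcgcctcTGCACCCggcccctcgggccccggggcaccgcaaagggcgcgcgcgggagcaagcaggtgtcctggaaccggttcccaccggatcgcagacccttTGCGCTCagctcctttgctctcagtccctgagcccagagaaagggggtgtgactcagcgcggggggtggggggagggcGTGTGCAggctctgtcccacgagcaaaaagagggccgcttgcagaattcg
Mt4: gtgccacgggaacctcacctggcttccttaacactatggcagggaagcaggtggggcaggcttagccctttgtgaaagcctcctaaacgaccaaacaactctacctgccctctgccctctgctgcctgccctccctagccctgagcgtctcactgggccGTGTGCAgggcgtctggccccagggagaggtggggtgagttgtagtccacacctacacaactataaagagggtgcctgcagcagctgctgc
Slc30a1: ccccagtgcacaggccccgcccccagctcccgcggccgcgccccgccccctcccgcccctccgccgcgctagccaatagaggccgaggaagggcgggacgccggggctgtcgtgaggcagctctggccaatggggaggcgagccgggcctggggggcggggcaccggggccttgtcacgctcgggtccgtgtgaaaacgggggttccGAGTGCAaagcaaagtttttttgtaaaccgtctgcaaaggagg
The window of Mt2 held 3 matches, while those of Mt1, Mt4 and Slc30a1 held 1 match each. Among all 32851 promoter windows of the same length, 21.4% held a match and 1.26% held 3 or more. Of the 30 zinc genes, 27 had 32 windows in the table, of which 14 (43.8%) held a match. These belonged to 13 genes, including Slc39a8 in 1 of its windows, and neither window of Slc39a10 had one. A match describes only the letters, and where RefSeq places the start decides which letters fall inside the window. Bases after the annotated start were not searched. The counts, that of Mt1 included, therefore hold for these windows only and do not rank the genes by their metal response elements.

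Levels were compared between genes as CPM (counts scaled to the same library total) per kilobase of the principal transcript, so that long and short transcripts stand on the same scale. The order of the genes depends on this length. Over all 8 samples, Mt1 had a mean of 208 CPM per kilobase of this transcript and 91.5 per kilobase of all its exons combined. For Slc39a14 these values were 34.9 and 16.3, while Slc39a1 had 62.5 with either length. The values below use the principal transcript. Mt2 and Mt1 had the highest means in both groups, 706 and 298 CPM per kilobase in control and 286.5 and 117 CPM per kilobase in Z1C2Z wounds. The ranges of Mt2, from 258 to 1201, and of Mt1, from 111 to 523 CPM per kilobase, overlapped, although Mt2 was above Mt1 within each sample. Mt4 had a mean of 19.3 CPM per kilobase in control, below several importers, and of 115 CPM per kilobase in Z1C2Z wounds, next to Mt1, and its samples ran from 8.35 to 208.
The order of the transporters differed between the groups. Among the importers, Slc39a1 at 70.3, Slc39a14 at 52.4 and Slc39a7 at 51.8 CPM per kilobase had the highest means in control, and neighbours in this order overlapped. In Z1C2Z wounds these were Slc39a10 at 58.3, Slc39a1 at 54.8 and Slc39a7 at 48.9 CPM per kilobase, of which Slc39a1 and Slc39a7 did not overlap, and Slc39a14 stood at 17.5. Among the exporters, Slc30a4 at 28.2 CPM per kilobase led in control, before Slc30a5 at 22.6 and Slc30a1 at 19.1, whose samples overlapped with each other. In Z1C2Z wounds Slc30a1 led at 36.6 CPM per kilobase, before Slc30a4 at 23.1 and Slc30a5 at 22.0, which overlapped. Mtf1 stood at 3.36 CPM per kilobase over all 8 samples. Slc39a12, Slc39a4, Gpr39, Mt3, Slc30a2 and Slc30a3 were all under 1 CPM per kilobase in each sample, Slc30a10 had 1 read in 1 sample, and Slc39a5 had 0 reads in all 8.

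**Figure D1:**
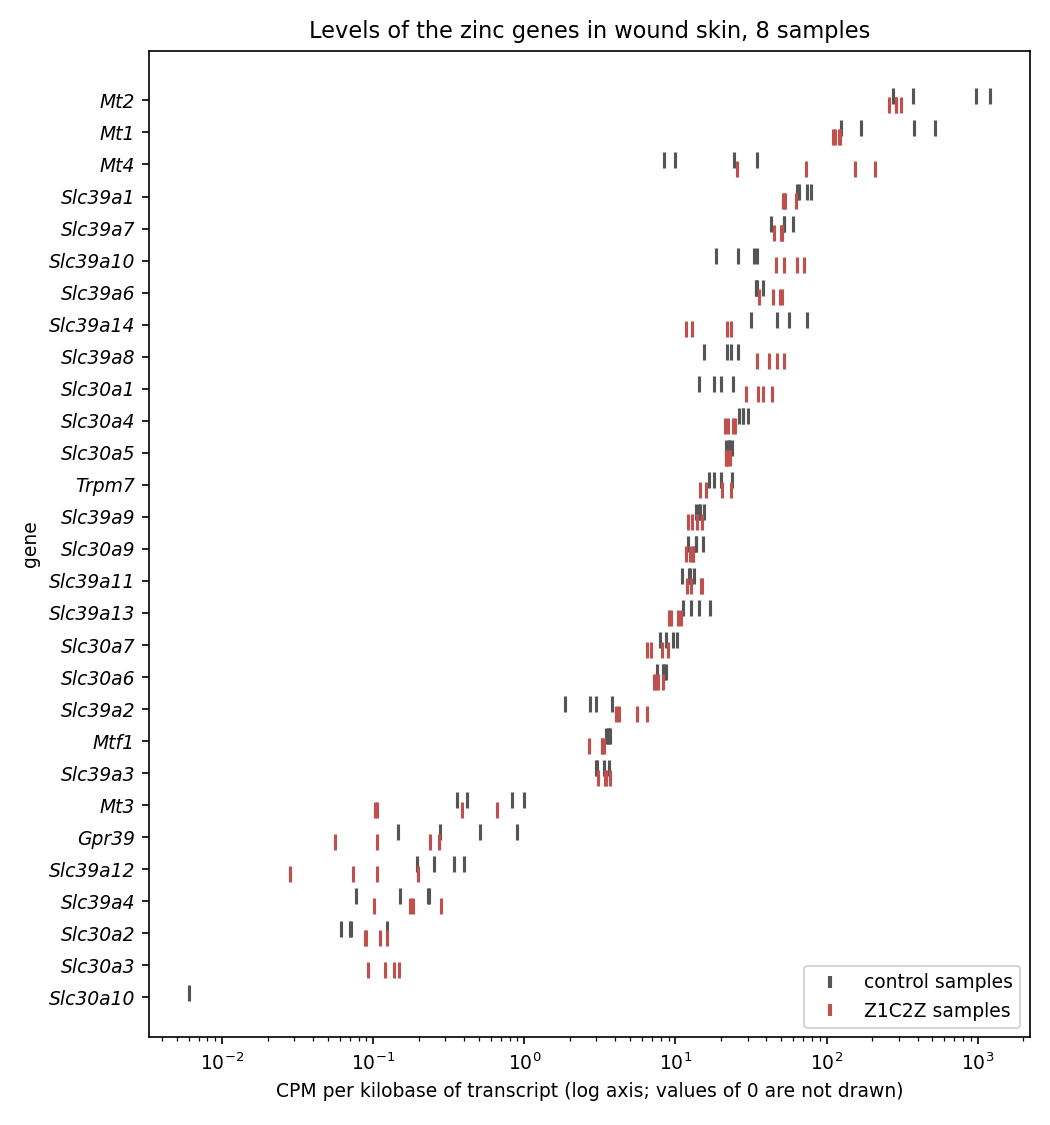
Levels of the zinc genes in CPM per kilobase of transcript on a log axis, 1 tick per sample, control in grey and Z1C2Z in red, genes ordered by their mean over all 8 samples. Mt2 and Mt1 lie at the top, Mt4 spreads from 8.35 to 208, and the red and grey ticks of Slc30a1, Slc39a8, Slc39a10 and Slc39a14 lie apart.

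Compared with the control group, 4 zinc genes rose in Z1C2Z wounds, namely Mt4, Slc30a1, Slc39a10 and Slc39a8, and Slc39a14 fell. These were called with edgeR's quasi-likelihood test at a Benjamini-Hochberg adjusted p under 0.05 over 15147 genes, at which 4.28% of all tested genes were higher and 3.85% lower. The 5 called genes were 19.2% of the 26 tested. At an unadjusted p under 0.05 the same test gave 6 higher and 8 lower zinc genes, where 12.8% of all tested genes were higher and 15.2% lower. The median log2 fold change of the 26 genes was -0.09, and that of all tested genes was 0.01. The samples of both groups did not overlap in 10 zinc genes, 4 of them higher and 6 lower in Z1C2Z wounds, where the share over all tested genes was 8.45% higher and 8.82% lower. Scaled by library totals in place of TMM, 6 zinc genes did not overlap, while Mt1, Slc39a1, Slc39a13 and Mtf1, all lower in Z1C2Z wounds, came to overlap. The share over all genes was not computed under that scaling. All 5 calls were lost (0 higher and 0 lower) when any single one of Z1C2Z-4, Z1C2Z-2, Z1C2Z-1, control-5 or control-2 was left out, while all 5 directions stayed. Without control-2 a few other genes were still called (25 higher and 98 lower), and without any one of the other 4 samples 0 genes of the whole table were called by edgeR, while 3100 to 4208 had an unadjusted p under 0.05.

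**Figure D2:**
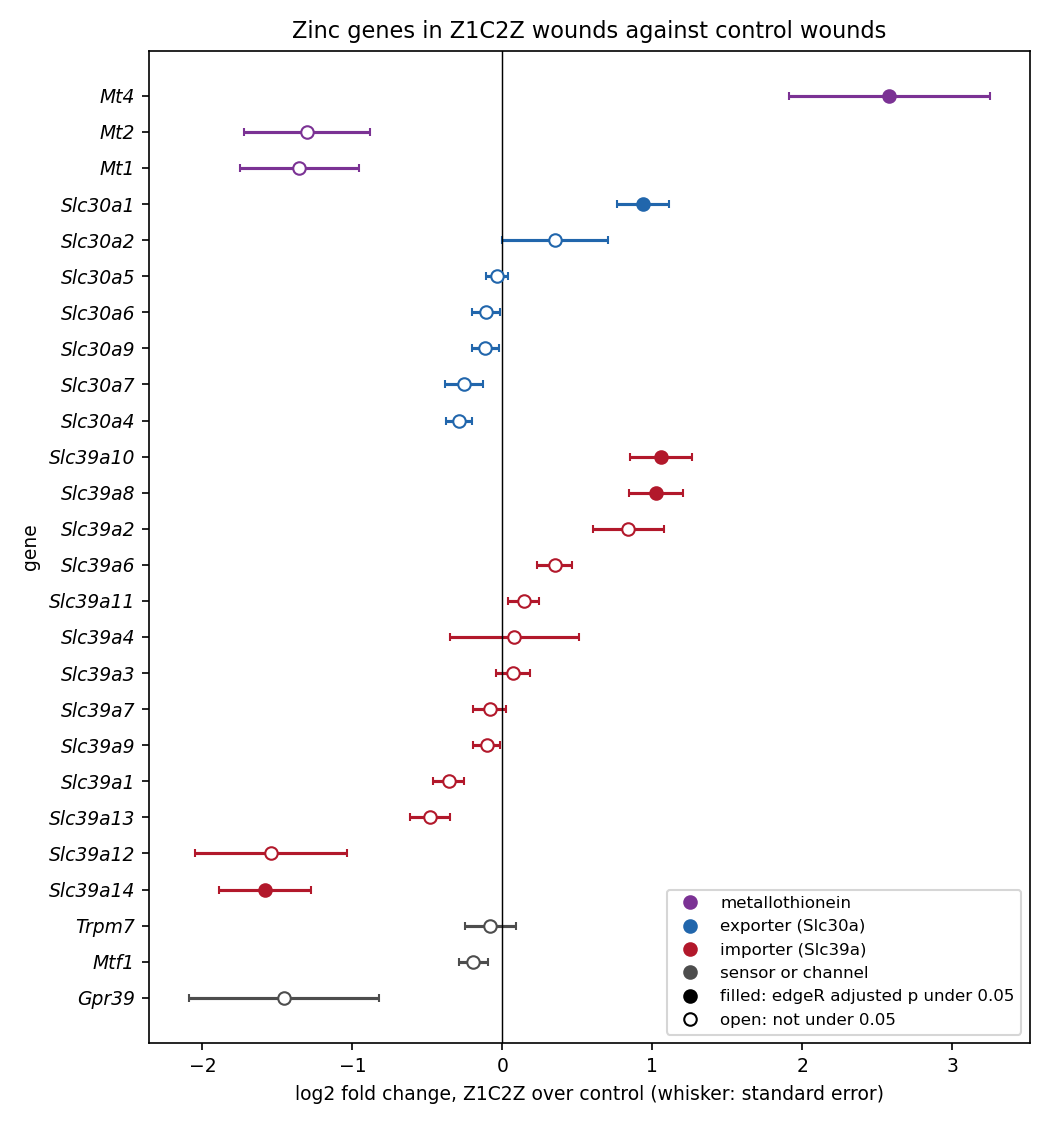
Log2 fold change of Z1C2Z over control wounds for the 26 tested zinc genes, grouped by role, with whiskers of 1 standard error and filled points for an adjusted p under 0.05. Filled points stand at 2.58 for Mt4, 0.94 for Slc30a1, 1.06 for Slc39a10, 1.02 for Slc39a8 and -1.58 for Slc39a14.

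Among the metallothioneins, 1 of 3 tested genes rose and 0 fell by edgeR's quasi-likelihood test, while its unadjusted p and DESeq2 both gave 1 higher and 2 lower. Mt1 and Mt2, the metallothioneins found in nearly all cells, had lower means in Z1C2Z wounds but missed the threshold. Mt1 measured 207, 92.9, 68.2 and 287 CPM in the control samples, and 60.8, 62.7, 66.9 and 66.0 CPM in the Z1C2Z samples. The Z1C2Z samples lay close together and below all control samples, but narrowly, with 66.9 CPM in Z1C2Z-4 and 68.2 CPM in control-3. Scaled by library totals in place of TMM, the groups overlapped. Control-1 and control-5 stood far above control-2 and control-3. The mean was 164 ± 102 CPM in control and 64.1 ± 2.86 CPM in Z1C2Z wounds (SD, n = 4). The log2 fold change was -1.35 with a standard error of 0.40, and edgeR's quasi-likelihood test gave an adjusted p of 0.0664. On TMM-scaled values, the exact two-sided permutation test gave p = 0.0286 for Mt1, the smallest that 70 arrangements allow, as 1 of 26 such tests. All zinc genes whose groups did not overlap gave this same p, which follows from the lack of overlap.

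Mt2 measured 499, 190, 140.5 and 614 CPM in the control samples, and 132, 160, 146.5 and 148 CPM in the Z1C2Z samples. Here control-3 fell within the range of the Z1C2Z samples, and the high controls were again control-1 and control-5. The means were 361 ± 231 and 146 ± 11.5 CPM (SD, n = 4), with a log2 fold change of -1.30, a standard error of 0.42 and an adjusted p of 0.0842 by edgeR's quasi-likelihood test. DESeq2 called both lower, at adjusted p of 0.0028 and 0.00668, and over 16 alternatives the adjusted p ran from 0.0028 to 0.378 for Mt1 and from 0.00668 to 0.446 for Mt2. Without control-1 and control-5 the log2 fold change was -0.34 for Mt1 and -0.18 for Mt2. The ratio of Mt2 to Mt1 in CPM was between 2.04 and 2.55 in all 8 samples, so the pair moved together. Mt1 and Mt2 have similar coding sequences, and how the authors' counting assigned reads shared by both is not given in the sources used here.

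Control-1 and control-5 also had the highest Il6. The gene lists used here and below were chosen with earlier results of these data known, so their counts are descriptive. Il6, a cytokine of the acute inflammatory response, measured 174 and 150 CPM in control-1 and control-5, 5.19 and 7.49 CPM in control-2 and control-3, and between 0.728 and 3.47 CPM in Z1C2Z wounds. Of 10 genes of the IL6 and STAT3 response, 0 rose and 6 fell by edgeR, with a median log2 fold change of -1.38, while DESeq2 gave 0 higher and 9 lower. Their summed level was 1780, 1868, 1463 and 3138 CPM in the control samples and 573.6 to 1179 CPM in Z1C2Z wounds. By this sum control-5 was the highest, while control-1, despite its high Il6, was below control-2. Of 8 glucocorticoid response genes, 0 rose and 3 fell (Dusp1, Per1 and Klf9), with a median log2 fold change of -0.34. The part of either response in the levels of Mt1 and Mt2 was not tested.

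Mt4, the metallothionein of stratified squamous epithelium, rose in Z1C2Z wounds. It measured 13.7, 3.97, 9.72 and 3.32 CPM in the control samples, and 28.9, 82.9, 61.1 and 10.1 CPM in the Z1C2Z samples. The groups overlapped, since Z1C2Z-5 was below control-1, and Z1C2Z-2 and Z1C2Z-4 carried the highest levels. The means were 7.68 ± 4.94 and 45.8 ± 32.5 CPM (SD, n = 4), a fitted 5.98-fold difference, with a log2 fold change of 2.58, a standard error of 0.67 and an adjusted p of 0.0485 by edgeR's quasi-likelihood test. The adjusted p was near the threshold, and 9 of 16 alternative fits did not call Mt4. Without Z1C2Z-2 and Z1C2Z-4 together its log2 fold change was 1.35.

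Markers of the hair matrix and hair shaft rose in the same group as Mt4. Their list was also chosen with earlier results of these data known. All 14 of 14 such markers rose, with a median log2 fold change of 3.5, and their summed level was 116.8 to 465.5 CPM in control and 551.6 to 3946 CPM in Z1C2Z wounds. The highest sums, 3946 and 3777 CPM, were those of Z1C2Z-2 and Z1C2Z-4, the samples with the highest Mt4. Z1C2Z-5 had the lowest sum and the lowest Mt4 of its group. The control samples did not keep this order. Control-1 had the highest Mt4 of the controls, but its hair marker sum of 135.6 CPM was below those of control-2 (239.5 CPM) and control-3 (465.5 CPM). Of 8 keratinocyte markers 0 rose and 0 fell, and their sums were 12440 to 15060 CPM in control and 13730 to 19120 CPM in Z1C2Z wounds. The labelled tissue is skin. For the keratinocyte markers an unadjusted p under 0.05 in edgeR gave 1 higher and 0 lower, as did DESeq2. None of the hair or keratinocyte markers was at 0 in every sample. The part of hair cells in the rise of Mt4 was not tested. In bulk RNA, fewer cells of a type and less RNA per cell cannot be told apart. Mt3, known mainly from brain, had 15, 16, 7 and 8 reads in the control samples, 2, 8, 14 and 2 reads in the Z1C2Z samples, and was not tested.

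**Figure D3:**
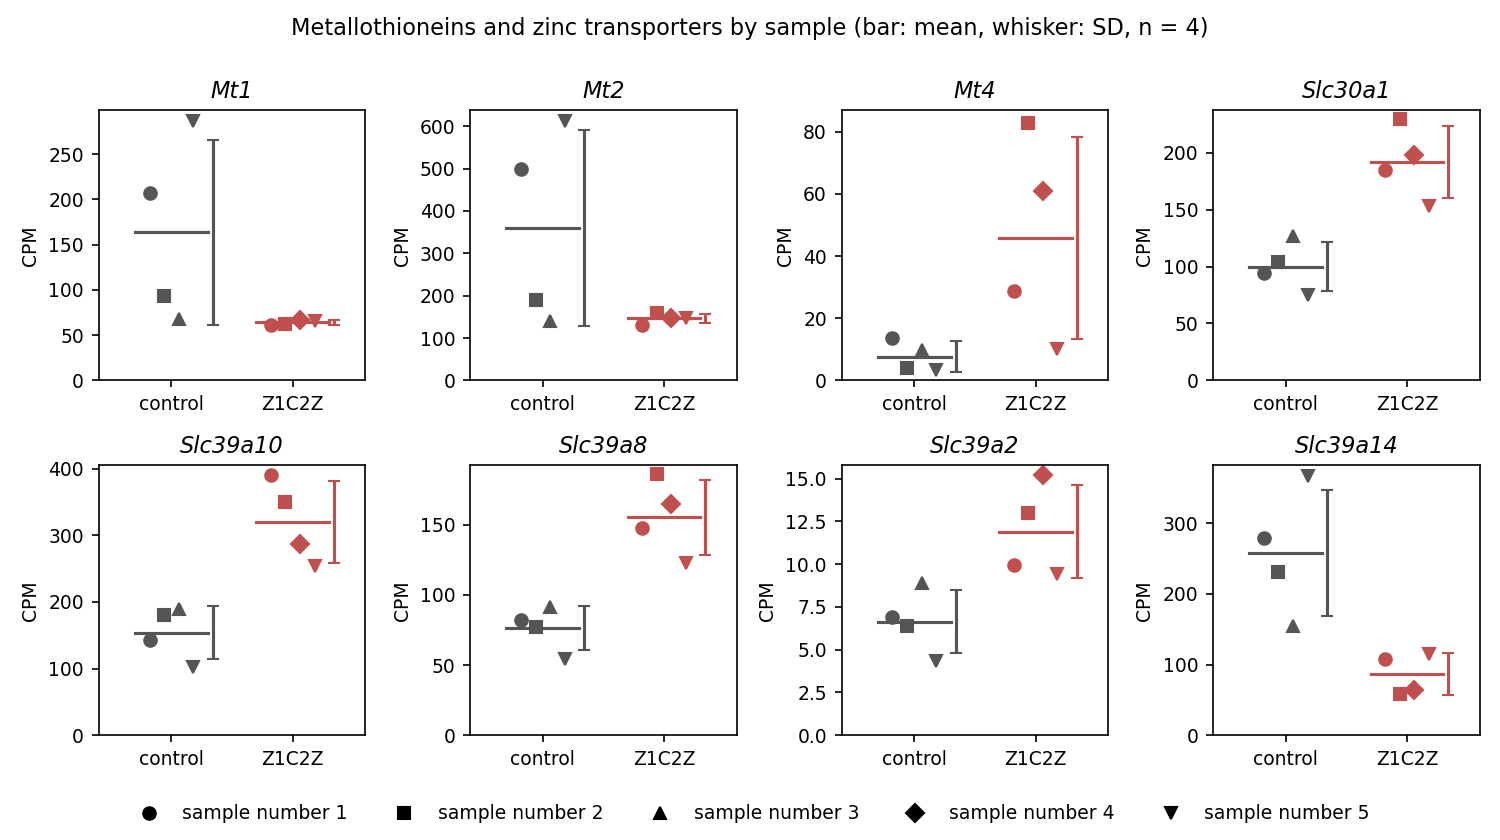
CPM of 8 zinc genes in each sample, control in grey and Z1C2Z in red, with the symbol shape giving the sample number, a bar at the mean and a whisker of 1 SD (n = 4). In Mt1 and Mt2 the spread lies in the control group, in Mt4 in the Z1C2Z group, and for Slc30a1, Slc39a10, Slc39a8, Slc39a2 and Slc39a14 the groups do not overlap.

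Of the 7 exporters tested, 1 rose, 0 fell and 6 did not pass edgeR's test, while its unadjusted p and DESeq2 both gave 1 higher and 1 lower. Slc30a1 (ZnT1), the exporter of the plasma membrane, measured 94.0, 104, 127 and 75.2 CPM in the control samples, and 185, 230, 198 and 154 CPM in the Z1C2Z samples. Each Z1C2Z sample was above each control sample. The means were 100.1 ± 21.6 and 192 ± 31.5 CPM (SD, n = 4), a 1.92-fold rise with a log2 fold change of 0.94, a standard error of 0.17 and an adjusted p of 0.0303 by edgeR's quasi-likelihood test. Within the textbook trio of zinc-responsive genes, Slc30a1 thus rose while Mt1 and Mt2 had lower means in the same samples. The control samples with the highest Mt1, control-5 and control-1, had the lowest Slc30a1. The hair marker sums given above put all 8 samples in the same order as Slc30a1, and the part of hair cells in its rise was not tested.

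Slc30a4, an exporter of endosomal and secretory vesicles, measured 153, 144, 164 and 154 CPM in the control samples, and 131, 134, 122 and 116 CPM in the Z1C2Z samples. The groups did not overlap, but the difference was small. Its log2 fold change was -0.29 with a standard error of 0.08 and an adjusted p of 0.0650 by edgeR's quasi-likelihood test. Slc30a5, which loads zinc into the early secretory pathway together with Slc30a6, lay between 68.2 and 75.5 CPM in all 8 samples. Its control values were 75.5, 71.7, 68.3 and 71.5 CPM and its Z1C2Z values were 69.2, 70.4, 68.2 and 72.6 CPM. The log2 fold change of Slc30a5 was -0.03 with a 95% interval from -0.20 to 0.13.

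The other 4 exporters tested, Slc30a2, Slc30a6, Slc30a7 and Slc30a9, had log2 fold changes between -0.26 and 0.35. Slc30a7 carries zinc into the Golgi, and Slc30a2 had at most 15 reads in a sample. Slc30a3, the exporter of synaptic vesicles, had 0 reads in all control samples and 11, 11, 10 and 7 reads in the Z1C2Z samples. It was at least 2.91-fold higher in Z1C2Z wounds against a floor of 3 counts per library, which covers counting error only, and was not tested.

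The importers moved in both directions. Of 13 importers tested, 2 rose, 1 fell and 10 did not pass the test, while DESeq2 gave 4 higher and 4 lower. Slc39a10 and Slc39a8 rose 2.08-fold and 2.04-fold, and Slc39a14, the closest relative of Slc39a8, fell.

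Slc39a10 (ZIP10), an importer of the plasma membrane, measured 143, 181, 189 and 102 CPM in the control samples, and 391, 350.5, 287 and 254 CPM in the Z1C2Z samples. All Z1C2Z samples exceeded all control samples. The means were 154 ± 39.9 and 320.5 ± 61.7 CPM (SD, n = 4), a 2.08-fold rise with a log2 fold change of 1.06, a standard error of 0.21 and an adjusted p of 0.0303 by edgeR's quasi-likelihood test. ZIP10 is known to be highly expressed in the hair follicle, and the hair markers given above rose in the same samples. The highest Slc39a10 was in Z1C2Z-1, whereas the highest hair marker sum was in Z1C2Z-2, and the part of hair cells in its rise was not tested.

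Slc39a8 (ZIP8), which imports zinc and manganese, measured 82.5, 77.5, 91.2 and 54.2 CPM in the control samples, and 148, 186, 165 and 122.5 CPM in the Z1C2Z samples. Again the groups did not overlap. The means were 76.4 ± 15.8 and 155 ± 26.8 CPM (SD, n = 4), with a 2.04-fold rise, a log2 fold change of 1.02, a standard error of 0.18 and an adjusted p of 0.0299 by edgeR's quasi-likelihood test. The hair marker sums put the samples in the same order as Slc39a8 except for control-1 and control-2, which changed places, and the part of hair cells in its rise was not tested.

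Slc39a14 (ZIP14), which imports zinc, manganese and iron that is not bound to transferrin, fell. It measured 279, 232, 155 and 366.5 CPM in the control samples, and 108, 57.7, 63.8 and 115.5 CPM in the Z1C2Z samples. Each Z1C2Z sample was below each control sample. The means were 258 ± 88.6 and 86.2 ± 29.7 CPM (SD, n = 4), with a log2 fold change of -1.58, a standard error of 0.31 and an adjusted p of 0.0303 by edgeR's quasi-likelihood test, so the control mean was 2.99-fold higher on the fitted scale. Without control-1 and control-5, the samples with the highest Il6 and Slc39a14, the log2 fold change was -1.17. The IL6 and STAT3 response genes given above fell in the same samples, and their part in the fall of Slc39a14 was not tested.

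Per kilobase of transcript, the ratio of Slc39a14 to Slc39a8 was between 1.22 and 4.85 in the control samples and between 0.223 and 0.676 in the Z1C2Z samples. Slc39a14 was therefore the more abundant of the pair in each control sample and the less abundant in each Z1C2Z sample. Copper and manganese handling genes were read beside these importers, which share manganese as a substrate, and 0 of 13 rose and 0 of 13 fell by edgeR's quasi-likelihood test at the adjusted threshold. At an unadjusted p it gave 3 higher and 2 lower, and DESeq2 gave 1 higher and 2 lower. Their median log2 fold change was 0.06. Closest to the threshold were Slc40a1, with a log2 fold change of 1.45, and Steap4, with -0.48. Their adjusted p was 0.05015 and 0.0538 by edgeR's quasi-likelihood test.

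**Figure D4:**
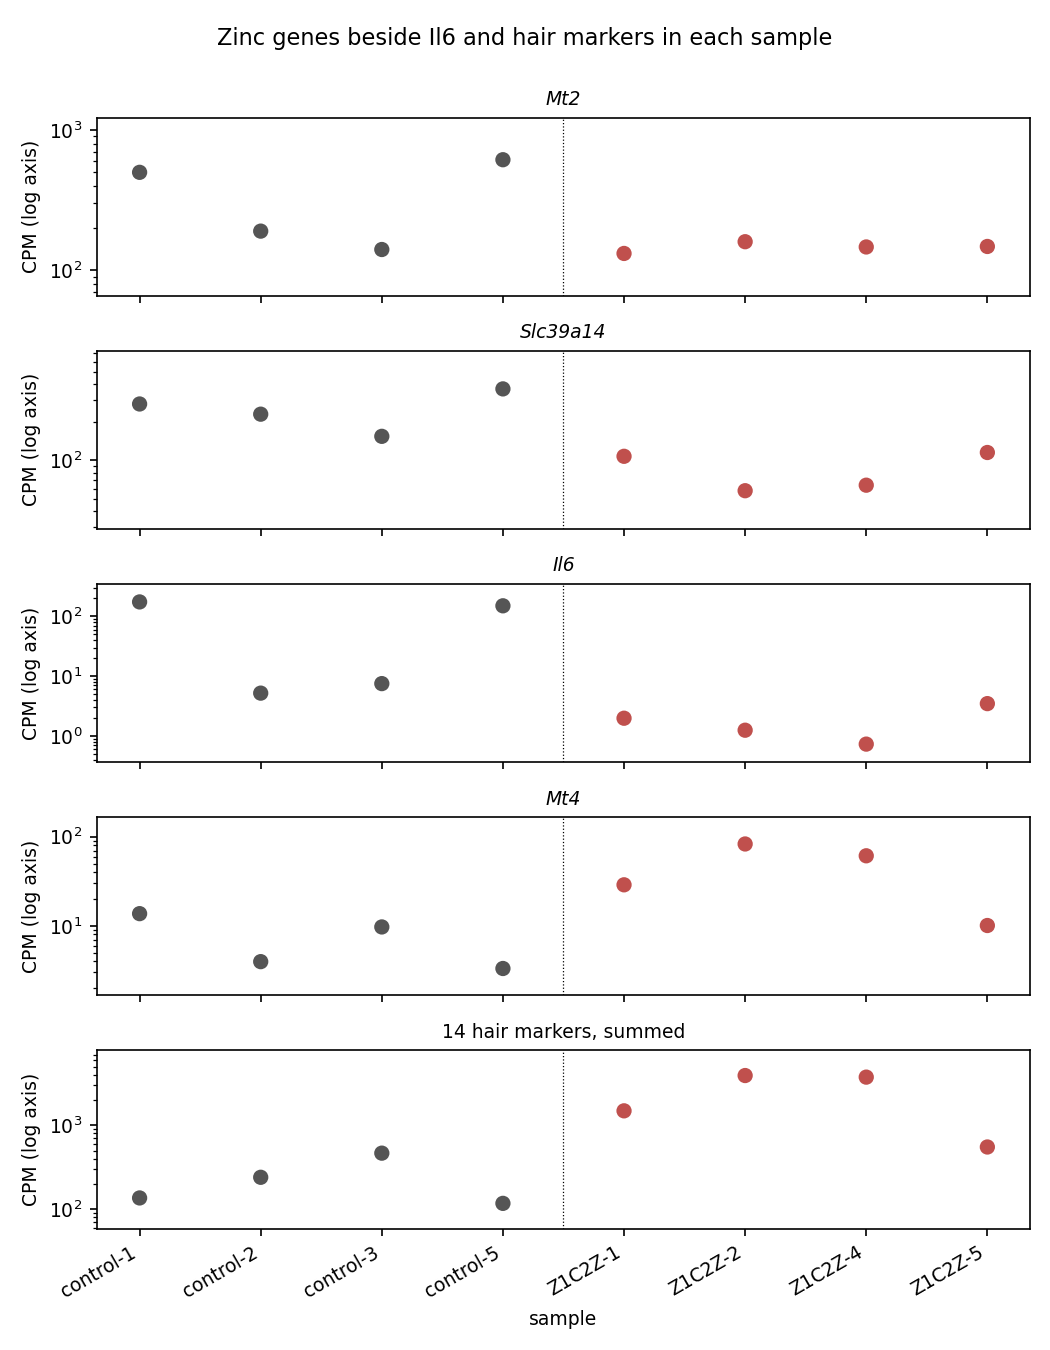
Mt2, Slc39a14, Il6, Mt4 and the sum of 14 hair markers in each sample, in CPM on log axes, control in grey and Z1C2Z in red. Control-1 and control-5 carry the highest Mt2, Slc39a14 and Il6, and Z1C2Z-2 and Z1C2Z-4 the highest Mt4 and hair marker sums (3946 and 3777 CPM).

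With TMM the groups did not overlap in 3 more importers, none of which passed the test. By library totals Slc39a1 and Slc39a13 overlapped. Slc39a2, an importer of the plasma membrane known from keratinocytes, measured 6.93, 6.38, 8.90 and 4.37 CPM in the control samples, and 9.93, 13.0, 15.2 and 9.43 CPM in the Z1C2Z samples. Its log2 fold change was 0.84 with a standard error of 0.24 and an adjusted p of 0.0585 by edgeR's quasi-likelihood test. Slc39a1, a widely expressed importer, measured 174, 154, 150.1 and 186 CPM in control and 126, 122, 123 and 147 CPM in Z1C2Z samples. The log2 fold change of Slc39a1 was -0.36 with a standard error of 0.10 and an adjusted p of 0.0647 by edgeR's quasi-likelihood test. These differences point in opposite directions.

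Slc39a13, which releases zinc from Golgi and vesicles and whose loss in people causes a form of Ehlers-Danlos syndrome, measured 27.5, 31.5, 35.6 and 41.9 CPM in control and 26.7, 23.2, 22.3 and 25.6 CPM in Z1C2Z samples. The gap between control-1 and Z1C2Z-1 was narrow. Its log2 fold change was -0.48 with a standard error of 0.14 and an adjusted p of 0.0583 by edgeR's quasi-likelihood test. Fibroblast markers, read beside it since connective tissue cells depend on Slc39a13, had 0 of 8 higher and 2 of 8 lower (Lum and Dcn) with a median log2 fold change of -0.51. DESeq2 gave 5 lower fibroblast markers and an unadjusted p in edgeR 7. Their summed level was 56790 to 80570 CPM in control and 44690 to 62380 CPM in Z1C2Z wounds, and their part in the values of Slc39a13 was not tested.

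Slc39a7, which releases zinc from the endoplasmic reticulum, measured 98.9, 121, 121 and 139.6 CPM in control and 104.5, 115, 117 and 118 CPM in Z1C2Z samples. The log2 fold change of Slc39a7 was -0.08 with a 95% interval from -0.33 to 0.17. The other 6 importers tested, Slc39a3, Slc39a4, Slc39a6, Slc39a9, Slc39a11 and Slc39a12, had log2 fold changes between -1.54 and 0.35 and overlapping groups. Slc39a12, at -1.54, had 3 to 33 reads per sample. Slc39a6, a close relative of Slc39a10, stood at 0.35 with an adjusted p of 0.0904 by edgeR's quasi-likelihood test. Slc39a4, the gut importer mutated in acrodermatitis enteropathica, had 6 to 30 reads per sample.

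None of the 3 sensor and channel genes passed edgeR's test. At an unadjusted p it gave 0 higher and 1 lower, which was Gpr39, and DESeq2 gave 0 and 0. Mtf1, the zinc-sensing transcription factor, measured 26.4, 27.9, 27.5 and 27.6 CPM in the control samples, and 25.0, 20.3, 24.8 and 25.6 CPM in the Z1C2Z samples. With TMM the groups did not overlap, by library totals they did, and Z1C2Z-2 stood apart. The means were 27.4 ± 0.667 and 23.9 ± 2.42 CPM (SD, n = 4), with a log2 fold change of -0.19, a standard error of 0.10 and an adjusted p of 0.219 by edgeR's quasi-likelihood test.

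Gpr39, a receptor for extracellular zinc, was low, with 6 to 86 reads per sample. It measured 0.391, 1.36, 0.744 and 2.42 CPM in control and 0.733, 0.285, 0.151 and 0.638 CPM in Z1C2Z samples, and the groups overlapped. Its log2 fold change was -1.46 with a 95% interval from -2.88 to -0.04, and edgeR's quasi-likelihood test gave an adjusted p of 0.169. Trpm7, a channel with a kinase domain that passes zinc and magnesium, measured 129, 169, 141 and 119 CPM in control and 166, 113, 103 and 145 CPM in Z1C2Z samples. The samples of both groups were interleaved, and the log2 fold change of -0.08 had a 95% interval from -0.46 to 0.30.

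Genes related to the use or binding of zinc were read beside the set. Of 8 tested genes of other zinc handling, 2 rose and 0 fell by edgeR, while DESeq2 gave 2 higher and 3 lower and an unadjusted p in edgeR 2 higher and 4 lower. The 2 that rose are zinc- and calcium-binding S100 proteins. By edgeR's quasi-likelihood test, S100a3 of the hair shaft had a log2 fold change of 3.31 and an adjusted p of 0.0411. S100a7a had a log2 fold change of 1.80 and an adjusted p of 0.0391 by the same test. The groups of both genes overlapped. Z1C2Z-5 lay below control-3, at 87.3 against 89.6 CPM in S100a3 and 12.5 against 13.8 CPM in S100a7a. S100a8 and S100a9, the subunits of the zinc-binding neutrophil protein calprotectin, had log2 fold changes of -1.27 and -1.36 and did not pass. Of 7 tested neutrophil markers, which include both, 0 rose and 0 fell by edgeR, with a median of -1.19 on the log2 scale. At an unadjusted p 0 were higher and 3 lower, and by DESeq2 0 were higher and 2 lower.

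Of 11 zinc enzymes that receive their metal in the secretory pathway, 0 rose and 2 fell by edgeR, the matrix metalloproteinases Mmp2 and Mmp14, with log2 fold changes of -0.78 and -0.74. The median log2 fold change of these enzymes was -0.57. DESeq2 gave 0 higher and 5 lower, and an unadjusted p in edgeR 0 higher and 6 lower. Among 11 genes of the carbonic anhydrase family, made up mostly of zinc enzymes, Car6 rose with a log2 fold change of 3.04. Its groups overlapped, with 7.7 CPM in Z1C2Z-5 and 12.0 CPM in control-1. Car4 and Car5b fell with log2 fold changes of -1.71 and -0.60. Of 10 genes of the oxidative and heavy metal response 1 rose, Gclc of glutathione synthesis, and 0 fell, with a median log2 fold change of -0.05. Hmox1, a heavy metal-inducible gene of heme breakdown, had a log2 fold change of -0.91 and an adjusted p of 0.181 by edgeR's quasi-likelihood test.

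The deposited annotation gave a further view. Of 47 tested genes annotated to KEGG Mineral absorption, 8 rose and 1 fell. Without the zinc genes of the set these were 7 of 42 higher and 1 of 42 lower. The higher genes include the iron genes Cybrd1, Heph and Hephl1, at log2 fold changes of 1.64, 0.60 and 1.25, the calcium channel Trpv6 at 1.97 and the vitamin D receptor Vdr at 0.55. The lower gene was Steap2, a metalloreductase, at -0.80. Of 9 tested genes annotated to the cellular response to zinc ion, 1 rose, which was Mt4, and 0 fell. Without the zinc genes of the set, 4 were left, of which 0 rose and 0 fell.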

How the data were processed

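Total RNA of mouse skin was depleted of ribosomal RNA and reverse transcribed with random primers, and the second strand was made with dUTP. For the extraction, Trizol is named in the labels and an RNA Easy Fast kit in the methods. The deposited table holds the authors' unnormalized read counts for 18540 genes. Their aligner, counter, build and strand setting are not given in the sources used here. Totals were 28856790 to 38974888 counts per sample, and 0 columns of per-sample values were left unused. No pair of libraries agreed within sampling noise (the smallest chi-square per degree of freedom was 21.0).

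Samples were grouped by their titles. The analysis used edgeR 4.0.16, under R 4.3.3 with limma 3.58.1. The filterByExpr function kept 15147 genes, which were scaled by TMM. The test was the quasi-likelihood F test of edgeR without covariates, with p-values adjusted over all of these genes after Benjamini and Hochberg. CPM values use the TMM-scaled totals, and log2 CPM a prior count of 2. Standard errors were derived from the F statistic. The steps were tested on simulated data. Transcript lengths are those of the principal transcript in GENCODE vM21, matched by symbol.

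Values in each sample are given for all metallothioneins, Mtf1, Gpr39 and Trpm7, all called or not overlapping zinc genes, and the 3 exporters and 3 importers with the highest level per length over all samples. Genes of other lists were named by up to 4 of the smallest adjusted p. Genes named beyond these (Mt3 in reads, Slc30a3, Il6, Mitf, S100a8, S100a9, Hmox1, other low importers and the KEGG genes) were chosen after their values were seen. The zinc genes and the lists were chosen with earlier results of these data known. Lox, a copper enzyme, was taken out of the list of secretory zinc enzymes after its values were seen. The alternatives were DESeq2 1.42.0, RLE size factors, a filter of 10 counts in all samples or no filter, a block for the sample number, an added fold threshold (absolute log2 fold change over 1), an unadjusted p and each sample left out in turn. Library totals without TMM and 2 pairs of samples left out together were added after the data were seen.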

Additional observations from a re-analysis of the deposited data

Results flagged for a closer look

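In Mtf1, Z1C2Z-2 stood far from the other samples of its group. It measured 20.3 CPM, whereas the other 3 lay between 24.8 and 25.6 CPM, and on the log2 CPM scale its gap to the nearest sample was 0.852 of the group's range, which is above Dixon's 95% critical value for 4 samples. It was the only such case among 32 groups examined, and chance gives about 1 in 20.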

How the results depend on the processing

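The 5 called zinc genes and Mt1, Mt2, Slc30a4, Slc39a1, Slc39a2, Slc39a13, Mtf1 and Gpr39 kept their direction under all alternatives run. With each sample left out in turn, the number of higher zinc genes was 0 to 6 and of lower ones 0 to 3. Those without overlap numbered 10 to 15, but a smaller group makes a lack of overlap likelier for any gene. The share over all genes was not computed for these settings. No call remained without Z1C2Z-4, Z1C2Z-2, Z1C2Z-1, control-5 or control-2 in turn, and the cause was not tested. Among the genes with values given in each sample, Mt1, Mt2 and Slc39a2 were newly called without control-3 and Slc39a13 without control-1. Without Z1C2Z-5, 6 zinc genes were called higher and 3 lower. The new calls there included Slc39a1 and Slc39a2, and also genes whose values in each sample are not given. With control-1 and control-5, or Z1C2Z-2 and Z1C2Z-4, left out together, 0 zinc genes were higher and 0 lower. DESeq2 gave 6 higher and 7 lower zinc genes, an unadjusted p 6 and 8, and an added fold threshold 3 and 1. Over all genes DESeq2 called 1243 higher and 1513 lower, against 648 and 583 with edgeR.

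With library totals in place of TMM the median log2 fold change of all genes was 0.10, with 972 genes higher and 385 lower. Of the zinc genes, 6 were higher, 1 was lower and 6 did not overlap. The share of all genes without overlap was not computed here. Under this scaling the log2 fold changes of Slc30a5 (0.058), Slc39a7 (0.011) and Trpm7 (0.00959) reversed. That of Trpm7 also reversed with the replicate block (0.0272) and without Z1C2Z-2 and Z1C2Z-4 (0.158), and it ran from -0.201 to 0.0231 with each sample left out in turn. The numbers 1, 2 and 5 occur in both groups, but same-numbered samples deviated together with correlations of -0.10, -0.06 and 0.32, so pairing is not shown. The replicate block gave 3 higher and 2 lower zinc genes, and 301 higher and 253 lower genes in all. Slc39a12 and Slc39a4, with at most 33 and 30 reads in a sample, are limited by depth.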

Other observations

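Marker lists of other cell types also differed between the groups. These lists, too, were chosen with earlier results of these data known. All 8 of 8 melanocyte markers rose, with a median log2 fold change of 1.6 and summed levels of 147.2 to 248.7 CPM in control and 321.8 to 700.0 CPM in Z1C2Z wounds. Mlana, a melanosome protein, had a log2 fold change of 2.16 and an adjusted p of 0.0299, and Mitf, the master transcription factor of the lineage, one of 0.60 and an adjusted p of 0.0365, both by edgeR's quasi-likelihood test. Of 12 skeletal muscle markers 0 rose and 3 fell, the skeletal actin Acta1 and the myosins Myh1 and Myh2, while DESeq2 and an unadjusted p in edgeR both gave 8 lower. Their summed levels were 3751 to 6924 CPM in control and 3066 to 3554 CPM in Z1C2Z wounds.

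Of 8 macrophage, 8 mast cell, 8 endothelial and 8 adipocyte markers, 0 rose and 0 fell in each list by edgeR, with median log2 fold changes of -0.37, -0.24, -0.66 and -0.46. At an unadjusted p these lists held 3, 1, 5 and 4 lower and 0 higher genes, and by DESeq2 0, 0, 2 and 2 lower and 0 higher genes. The part of these cell types in the levels of the zinc genes was not tested.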
